A study of Mus musculus with 18 samples.

Results

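RNA levels of 10 integrin subunits were followed across LPS-treated mouse macrophages in which Smim30, a gene for a small membrane protein, was mutated, overexpressed or knocked down. The subunits were Itgam, Itgax, Itgal, Itgb2, Itga4, Itga6, Itgav, Itgb1, Itgb3 and Itgb5. They were taken by name from the symbol that matched each gene identifier, and all 10 were found among 55401 genes in 18 libraries. In Mut macrophages the RNA of Itgav, Itga4 and Itgax was higher than in WT, and in Mut macrophages with the Smim30 virus the RNA of Itgam, Itgax and Itga4 was higher than with the control virus. In IC-21 cells the Smim30 siRNA went with more Itgal and Itgav RNA. These differences were of 1.12-fold to 1.45-fold, whereas Mut macrophages with the control virus and a longer culture differed from Mut macrophages without them by up to 5.05-fold (Itga6). In that last comparison 9 of the 10 subunits were called, as were 53.6% of all genes tested.

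RNA sequencing was done on 6 groups of 3 libraries, all from cells of the strain C57BL/6J and all given lipopolysaccharide (LPS), the bacterial component sensed by Toll-like receptors, at 5 ng/ml for 6 h. Mut and WT were peritoneal macrophages of mice with mutated Smim30 and of wild-type mice, with LPS as the sole stated treatment. Mut-SMIM30-OE and Mut-Control were both peritoneal macrophages of mutant mice, given a Smim30 overexpression adenovirus or a control adenovirus 6 h after plating and kept with it for 24 h before LPS. siSMIM30 and siControl were cells of IC-21, a macrophage line that was made from mouse peritoneal cells. siSMIM30 cells had a Smim30 siRNA for 24 h before LPS, and siControl cells, which the series text calls wild-type, were their control. The labels give neither the mutated bases, nor the ages of the mice, nor the insert of the virus, and they name triplicates without saying whether these were separate mice or cultures. All p-values here thus reflect the spread among these libraries alone, and that spread may be technical.

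Integrins are receptors of 1 α and 1 β subunit that hold cells to extracellular matrix and to other cells and that signal in both directions across the membrane. Leukocytes carry the β2 family, in which the β2 chain (Itgb2) pairs with αL (Itgal, the receptor LFA-1 for ICAMs), αM (Itgam, Mac-1 or complement receptor 3) or αX (Itgax, complement receptor 4). The β1 chain (Itgb1) pairs with α4 (Itga4, which binds VCAM-1 and fibronectin) or α6 (Itga6, which binds laminin), and αv (Itgav) pairs with β1, β3 (Itgb3), β5 (Itgb5) or β8 to bind vitronectin, osteopontin and latent TGF-β. In macrophages these receptors take part in adhesion, migration and the uptake of opsonized particles and dying cells, and Itgam is a common surface marker of the cell type.

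In the coordinates of GRCm38, the build named in the file headers, every subunit gene lies on the plus strand. Itgal (chr7:127296260-127335138), Itgam (chr7:128062640-128118491) and Itgax (chr7:128129547-128150657) share chromosome 7, and 11055 bases separate the end of Itgam from the start of Itgax. Itga6 (chr2:71745616-71858416), Itga4 (chr2:79255426-79333123) and Itgav (chr2:83724397-83806916) share chromosome 2. Itgb2 (chr10:77530252-77565708), Itgb1 (chr8:128685654-128733200), Itgb3 (chr11:104608000-104670476) and Itgb5 (chr16:33829665-33949338) lie apart. Counts were made over the exons of each gene and by strand, and the sole gene with exons on the same strand as a subunit was Gm49368 at Itgam, which held at most 5 counts in a library.

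The promoters of 3 subunits called higher in a comparison that alters Smim30 are shown. Itgam and Itgax were taken because these neighbours both rose with the Smim30 virus. Itgav was taken because it had the largest rise of the 10 subunits in Mut against WT. The letters are the 250 bases before each RefSeq gene start in the RefSeq promoter table of build GRCm38, on the plus strand, in which 6 of the 10 subunits had an entry. Capitals mark every match, on either strand, to GAGGAA (core letters of sites for PU.1, a factor of macrophage identity), TGAGTCA (the AP-1 motif) or GGGCGG (the GC box of Sp1), and no matches overlapped. Itgam lies at chr7:128062390-128062639, Itgax at chr7:128129300-128129549 and Itgav at chr2:83724147-83724396.
Itgam: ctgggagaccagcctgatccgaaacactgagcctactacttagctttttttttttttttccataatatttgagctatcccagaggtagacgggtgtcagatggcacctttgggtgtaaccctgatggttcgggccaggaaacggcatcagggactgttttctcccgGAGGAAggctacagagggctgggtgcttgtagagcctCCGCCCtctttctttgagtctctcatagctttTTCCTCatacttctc
Itgax: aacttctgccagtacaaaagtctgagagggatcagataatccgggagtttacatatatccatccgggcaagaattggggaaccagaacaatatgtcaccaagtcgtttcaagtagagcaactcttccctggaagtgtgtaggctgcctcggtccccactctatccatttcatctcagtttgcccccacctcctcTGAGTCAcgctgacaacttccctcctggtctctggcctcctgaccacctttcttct
Itgav: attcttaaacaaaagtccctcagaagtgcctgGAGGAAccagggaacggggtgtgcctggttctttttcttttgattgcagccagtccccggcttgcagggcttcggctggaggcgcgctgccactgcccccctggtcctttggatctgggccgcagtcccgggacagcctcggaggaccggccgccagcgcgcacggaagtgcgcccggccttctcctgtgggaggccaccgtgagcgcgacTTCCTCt

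The Itgam window held 2 matches to the PU.1 core and 1 to the GC box, the Itgax window 1 match to the AP-1 motif, and the Itgav window 2 matches to the PU.1 core. Among 32851 windows of this length in the table, 23.3% held a PU.1 core, 4.46% an AP-1 motif and 32.7% a GC box, so the first and last are common letters in promoters. Of the other 3 windows, Itgb1 held 1 PU.1 core and 1 GC box, Itga4 held 1 GC box and Itgb5 held 3 GC boxes. The match closest to a start was that of Itgav, whose first base lay 7 bases before it.

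Libraries held 6855245 to 13456857 counted read pairs, and the floor of detection, set at 3 counts, equalled 0.223 to 0.438 CPM, that is, counts relative to the size of the library. This floor covers counting error alone. All 8 macrophage markers were above that floor in every group, but in IC-21 their summed level was 2431 to 2607 CPM with siSMIM30 and 2478 to 2584 CPM with siControl, against 12250 to 15030 CPM across the peritoneal groups. Of 7 large peritoneal macrophage markers, Gata6, Timd4, Apoc1, Cxcl13 and Alox15 were at or under 3 counts in each IC-21 library. Apoc1 and Alox15 were also so in each Mut, Mut-SMIM30-OE and Mut-Control library. Fcna, of the same list, was at 8.28 CPM with siSMIM30 and 9.02 CPM with siControl, against 26.0 CPM in Mut and 31.9 CPM in WT. Peritoneal libraries also held RNA of other cells, with 12 fibroblast and mesothelial markers summing to 320.6 to 361.7 CPM in Mut and WT, so these were not pure macrophages by RNA. In such bulk RNA, fewer cells of a type and less RNA per cell cannot be told apart.

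Smim30, listed under the clone name 2610001J05Rik, was at 6.41, 8.23 and 8.61 CPM with siSMIM30 and at 15.8, 14.3 and 15.5 CPM with siControl (log2 fold change -0.97, SE 0.12, adjusted p = 6.17e-08 by edgeR's quasi-likelihood test). Its gene count was 60.4, 61.7 and 65.0 CPM in Mut-SMIM30-OE and 53.5, 49.6 and 51.4 CPM in Mut-Control (0.28, SE 0.06, edgeR adjusted p = 0.0052), and 50.7, 62.3 and 60.9 CPM in Mut and 51.7, 60.9 and 59.6 CPM in WT (0.01, SE 0.08, edgeR adjusted p = 0.966). The gene's RNA was thus lower with the siRNA and slightly higher with the virus, and the count in Mut did not pass the test, which says nothing of a change within the coding sequence.

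The β2 chain was the most abundant subunit RNA in peritoneal macrophages and the β1 chain in IC-21. Levels of different genes are compared here in CPM per kilobase of counted exon, and the order given is among the 10 subunits. Itgb2 was at 864 ± 41.8 CPM per kilobase in Mut and 863 ± 41.3 in WT (SD, n = 3 each), followed by Itgb1 at 339 ± 8.78 in Mut and 326 ± 7.25 in WT and by Itgax at 214 ± 2.40 in Mut and 191 ± 10.3 in WT. Itgal, Itgav, Itgam, Itgb5, Itga4, Itgb3 and Itga6 followed in that order of means in both groups. Outside the 10, Itga5 lay between Itgax and Itgal, at 164 ± 5.61 in Mut and 132 ± 2.74 in WT. Itgb7 was at 40.3 ± 1.89 in Mut and 42.9 ± 1.30 in WT, where Itgal was at 40.6 and 37.5. The ranges of the 3 libraries overlapped for the neighbours Itgal and Itgav in Mut and for Itgb3 and Itga6 in WT, and all other neighbours in the order were apart.

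The order differed in the cells kept longer with a virus and in the line. In both virus groups Itgb5 came next after Itgax, at 53.7 ± 2.18 CPM per kilobase in Mut-SMIM30-OE and 52.0 ± 2.59 in Mut-Control, above Itgav, Itgam, Itgal, Itga6, Itgb3 and Itga4. In IC-21, Itgb1 at 118 ± 0.938 CPM per kilobase with siSMIM30 and 121 ± 4.11 with siControl stood above Itgb2 at 54.4 ± 2.42 and 54.2 ± 4.27 in the same 2 groups. Itgb3 was last in the line, at 0.295 ± 0.0743 CPM per kilobase with siSMIM30 and 0.244 ± 0.0669 with siControl. With the length of the longest coding transcript in place of the counted length, a setting chosen after seeing the data and computed for WT and siControl, Itga4 moved above Itgb5 and Itga6 above Itgb3 in WT, and Itga6 above Itgb5 in siControl.

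**Figure D1:**
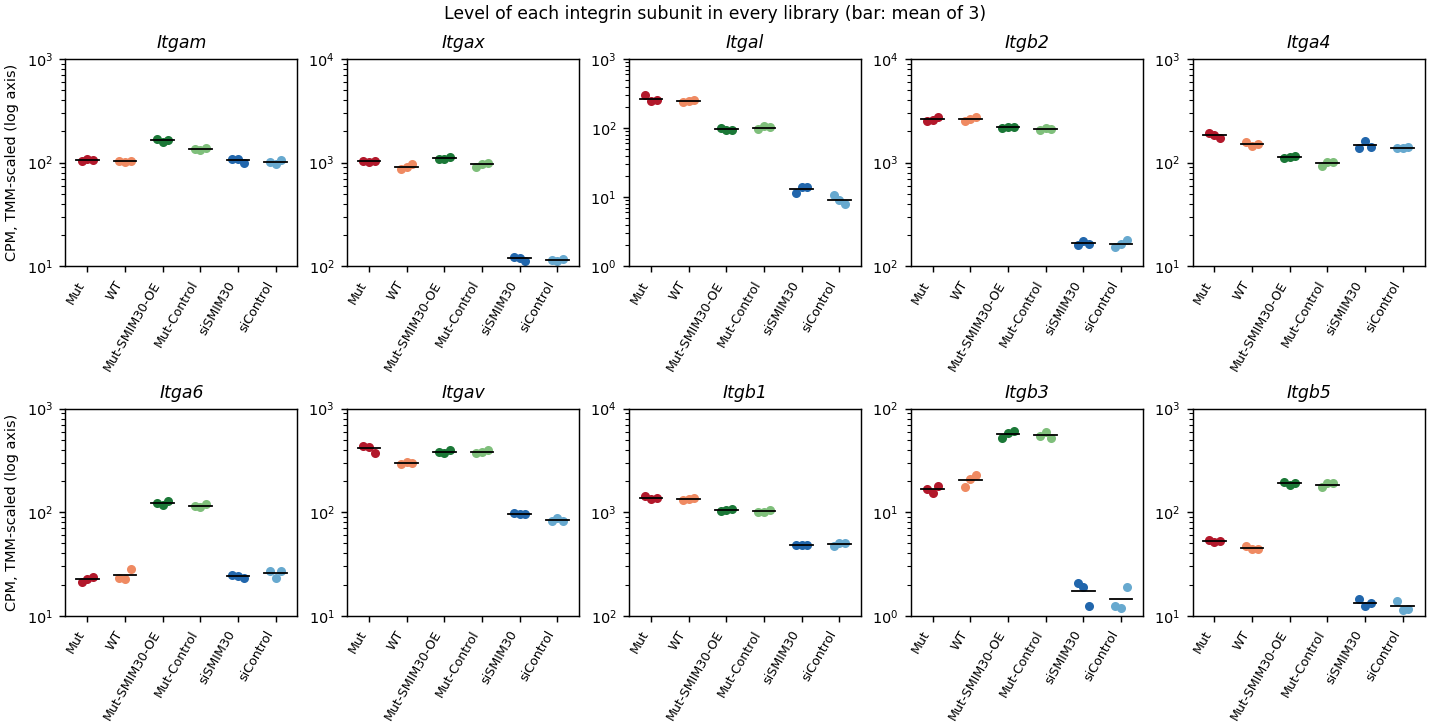
Level of each of the 10 integrin subunits in every library, in CPM TMM-scaled (by a trimmed mean of log ratios) over all 18 libraries on a log axis, with 3 points and a bar at their mean for each group. Itga6, Itgb3 and Itgb5 stood higher in both virus groups than in Mut and WT, and Itgb2, Itgax, Itgal and Itgb3 were lowest in the IC-21 groups.

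Mut macrophages carried more RNA of 3 of the 10 subunits than WT macrophages, the comparison that sets mutant against wild-type cells, both under LPS. Itgav, Itga4 and Itgax, all α chains, passed the test as higher, and the β chains among the 10 did not. Outside the 10, the β chain Itgb8 and the α chain Itga5 also passed as higher, as given below. Of 12500 genes tested, 6.3% were called at an adjusted p under 0.05, 3.68% as higher and 2.62% as lower, against 3 of the 10 subunits called, all higher. The median log2 fold change was 0.075 over the 10 subunits and -0.006 over all genes tested. No subunit passed as lower by edgeR or by DESeq2, and 1 (Itgb3) had an unadjusted p under 0.05 in that direction.

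Itgav, the α chain of the vitronectin and osteopontin receptors, was at 435, 430.4 and 373 CPM in Mut and 292, 304 and 301 CPM in WT. All 3 Mut libraries lay above all 3 WT libraries, with Mut replicate 3 the lowest of its group. The rise was 1.37-fold (log2 fold change 0.45, SE 0.05, adjusted p = 1.77e-06 by edgeR's quasi-likelihood test), and it passed in all 13 alternative settings.

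Itga4, the α chain of the VCAM-1 receptor, was at 194, 185 and 173 CPM in Mut and 159, 144 and 151 CPM in WT, again without overlap. It rose 1.20-fold (log2 fold change 0.27, SE 0.06, edgeR adjusted p = 0.00281) and passed in all 13 alternatives. Itgax, the α chain of complement receptor 4, was at 1030.2, 1018 and 1041 CPM in Mut and 867, 916 and 966 CPM in WT. It rose 1.12-fold (0.16, SE 0.04, edgeR adjusted p = 0.0263), and this call was lost in 7 of 13 alternatives, among them without any 1 of the 3 Mut libraries or of WT replicates 1 and 2 (adjusted p from 0.0508 to 0.119).

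The other 7 subunits did not pass. Itgb5, a β partner of αv, was at 54.1, 52.0 and 53.1 CPM in Mut and 47.6, 44.0 and 44.2 CPM in WT, groups that did not overlap (log2 fold change 0.22, SE 0.08, edgeR adjusted p = 0.0894), and passed only in the fit of all 18 libraries (adjusted p = 0.024). Itgb3, the β chain shared with the platelet fibrinogen receptor, was at 16.6, 15.4 and 17.97 CPM in Mut and 17.5, 20.8 and 23.0 CPM in WT (-0.30, SE 0.12, edgeR adjusted p = 0.174). Itgam, Itgal, Itgb2, Itga6 and Itgb1 had log2 fold changes from -0.14 to 0.10, and their groups overlapped. Groups without overlap, 4 of the 10 subunits, were found for 21.8% of all genes tested.

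Other chains that pair with αv or bind its ligands were measured beside them. Of 16 integrin subunits outside the 10, 7 were tested and 2 rose: Itgb8, the β partner of αv in the activation of latent TGF-β, at 59.5 ± 8.26 CPM in Mut and 37.1 ± 0.521 CPM in WT (SD, n = 3 each; log2 fold change 0.66, edgeR adjusted p = 1.35e-05), and Itga5, the α chain of the fibronectin receptor, at 811 ± 27.7 CPM in Mut and 649 ± 13.5 CPM in WT (0.31, edgeR adjusted p = 2.08e-05). Among 16 tested ligands and counter-receptors, 4 rose and 2 fell. Spp1, which encodes the αv ligand osteopontin, rose (0.70), as did Vcam1, the counter-receptor of α4 (0.49), Icam1, a β2 ligand (0.36), and Mfge8, which bridges αv integrins to dying cells (0.34). Ltbp1, which holds latent TGF-β in the matrix (-1.36), and the matrix protein gene Thbs1 (-0.69) fell.

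Of 34 tested proteins of integrin activation and the adhesion complex, 4 rose and 1 fell. Zyx, a focal adhesion protein (log2 fold change 0.66), Dab2, an endocytic adaptor for integrins (0.64), the small GTPase gene Rap1b (0.22) and the actin crosslinker gene Actn1 (0.20) rose, and Fgr, a Src family kinase gene (-0.27), fell. The talin, kindlin and vinculin genes Tln1, Fermt3 and Vcl were not among those called. Of 12 membrane partners, Cd47 (0.29), a binding partner of αv integrins and the ligand of SIRPα, and the tetraspanin gene Cd53 (0.20) rose and Cd37 (-0.20), another tetraspanin gene, fell.

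Other features of the libraries also lay apart between genotypes. The 8 macrophage markers summed to 12580 to 13300 CPM in Mut and 13660 to 15030 CPM in WT. Lyz2, the largest part of that sum, was called lower, at 7281 ± 279 CPM in Mut and 8860 ± 437 CPM in WT (SD, n = 3 each). Cd14 and Fcgr1 were called higher, and the other 5 did not pass. The 7 large peritoneal macrophage markers summed to 40.52 to 43.57 CPM in Mut and 50.04 to 50.91 CPM in WT, with 0 of 4 tested called. The 4 mast cell markers summed to 8.442 to 9.669 CPM in Mut and 6.937 to 8.205 CPM in WT, with 0 of 3 tested called. The 5 dendritic cell markers summed to 10.85 to 16.46 CPM in Mut and 8.097 to 8.671 CPM in WT. Batf3 was the 1 called of 3 tested, and Xcr1 was at or under 3 counts in every Mut and WT library. The 6 B cell markers summed to 71.99 to 76.36 CPM in Mut and 100.4 to 110.2 CPM in WT, with Cd22 the 1 called of 4 tested. Ribosomal RNA genes took 0.399 to 1.03% of counts in Mut and 1.74 to 2.49% in WT. The part of these differences in the integrin values was not tested. The 12 fibroblast and mesothelial markers overlapped, at 320.6 to 354.5 CPM in Mut and 327.4 to 361.7 CPM in WT.

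With the Smim30 virus, Mut macrophages had more RNA of Itgam, Itgax and Itga4 than with the control virus, and Itgav did not differ beyond its error. The comparison asks what added Smim30 does in mutant cells. Of 12701 genes tested, 1.43% were called, 0.583% as higher and 0.842% as lower, against 3 of the 10 subunits, all higher. The median log2 fold change was 0.052 over the subunits and 0.0 over all genes. None was called lower by edgeR or DESeq2, and 0 had an unadjusted p under 0.05 in that direction.

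Itgam, the α chain of complement receptor 3, was at 170.0, 159 and 164 CPM in Mut-SMIM30-OE and 136, 131 and 139 CPM in Mut-Control. The groups were well apart, and Itgam rose 1.21-fold (log2 fold change 0.27, SE 0.04, adjusted p = 4.6e-06 by edgeR's quasi-likelihood test). Its neighbour Itgax was at 1085, 1087 and 1127 CPM in Mut-SMIM30-OE and 915, 975 and 999 CPM in Mut-Control, without overlap, a rise of 1.14-fold (0.19, SE 0.03, edgeR adjusted p = 1.8e-06). Both calls held in all 13 alternatives.

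Itga4 was at 111, 113 and 116 CPM in Mut-SMIM30-OE and 92.6, 101 and 102 CPM in Mut-Control, a rise of 1.15-fold (log2 fold change 0.20, SE 0.05, edgeR adjusted p = 0.00878). Its call was lost with DESeq2 (adjusted p = 0.127), in the fit of all 18 libraries (0.0779) and without Mut-SMIM30-OE replicate 2 (0.0547), Mut-SMIM30-OE replicate 3 (0.147) or Mut-Control replicate 1 (0.194), within a range of 0.000844 to 0.194 over 13 alternatives. Itgav was at 378, 372 and 397 CPM in Mut-SMIM30-OE and 375, 384 and 398 CPM in Mut-Control, groups that lay over each other (-0.01, SE 0.03, edgeR adjusted p = 0.94). The remaining 6 subunits had log2 fold changes from -0.09 to 0.08 and overlapping groups. Groups apart were found for 3 of the 10 subunits and for 15.1% of all genes tested.

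No other integrin subunit of 5 tested was called by edgeR or DESeq2, with 1 at an unadjusted p under 0.05, and none of 35 tested adhesion-complex proteins was, with 7 at an unadjusted p under 0.05 by edgeR. Among 16 tested ligands, Spp1 rose (log2 fold change 0.18, edgeR adjusted p = 8.77e-08) and the complement gene C3, whose fragment is the ligand of the αM and αX receptors, fell (-0.33, edgeR adjusted p = 4.51e-06), and the laminin gene Lamb1 also fell, at a low level (average log2 CPM 0.08). Of 12 membrane partners Cd36, a scavenger receptor gene, rose (0.11, edgeR adjusted p = 0.000519). Fibroblast and mesothelial markers summed to 61.06 to 70.45 CPM in Mut-SMIM30-OE and 111.9 to 135.0 CPM in Mut-Control, and 7 of 8 tested were called lower, while the 8 macrophage markers summed to 12250 to 12400 CPM and 12390 to 12600 CPM in the same 2 groups with Adgre1 called higher. The 7 large peritoneal macrophage markers summed to 35.83 to 38.73 CPM in Mut-SMIM30-OE and 39.38 to 45.06 CPM in Mut-Control, with 0 of 4 tested called. Their part in the integrin values was not tested.

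In IC-21 cells the Smim30 siRNA went with more RNA of Itgal and Itgav, the comparison that asks what loss of Smim30 RNA does in a macrophage line. Of 13576 genes tested, 3.48% were called, 2.39% as higher and 1.09% as lower, against 2 of the 10 subunits, both higher. The median log2 fold change was 0.069 over the subunits and -0.002 over all genes. DESeq2 called 1 subunit higher, and 0 subunits had an unadjusted p under 0.05 as lower with edgeR or a lower call by DESeq2.

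Itgal, the α chain of LFA-1, was low in the line, at 11.4, 13.99 and 14.3 CPM with siSMIM30 and 10.6, 8.99 and 7.83 CPM with siControl. The groups did not overlap, though siSMIM30 replicate 1 and siControl replicate 1 were near each other. It rose 1.45-fold (log2 fold change 0.54, SE 0.13, adjusted p = 0.00473 by edgeR's quasi-likelihood test). The call was lost without siSMIM30 replicate 2 (adjusted p = 0.0533), siSMIM30 replicate 3 (0.0531) or siControl replicate 3 (0.0515), DESeq2 gave it no adjusted p, and the range over the 12 alternatives that gave one was 0.00197 to 0.0533.

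Itgav was at 97.6, 95.8 and 95.6 CPM with siSMIM30 and 82.3, 87.4 and 82.0 CPM with siControl, again apart. It rose 1.14-fold (log2 fold change 0.19, SE 0.05, edgeR adjusted p = 0.0056) and passed in all 13 alternatives. Itgb3 was low, with 24, 23 and 13 counts with siSMIM30 and 12, 20 and 23 counts with siControl, and its fold change had a wide error (log2 fold change 0.29, SE 0.32). The other 7 subunits had log2 fold changes from -0.09 to 0.14 and overlapping groups, and 18.8% of all genes tested had groups apart.

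Of 7 other integrin subunits tested, Itga5 rose by 0.11 on the log2 scale (edgeR adjusted p = 0.0419), a call DESeq2 did not make. Of 31 tested adhesion-complex proteins 5 rose: Lims1, which encodes the PINCH adaptor of integrin-linked kinase (log2 fold change 0.38), the adaptor gene Fyb (0.23), the actin crosslinker gene Flna (0.23), Zyx (0.22) and Dab2 (0.21). DESeq2 called 4 of them, and 0 fell by either tool, with 0 at an unadjusted p under 0.05. Among 11 tested ligands the laminin gene Lamc1 rose (0.19) and Spp1 fell (-0.26). Among 12 membrane partners Plaur, the urokinase receptor gene and a lateral partner of integrins (0.34), Slc3a2 (0.12) and Sirpa (0.12) rose and the tetraspanin gene Cd82 (-0.26) fell. The 12 fibroblast and mesothelial markers summed to 0.247 to 0.693 CPM with siSMIM30 and 0.179 to 0.247 CPM with siControl. The 8 macrophage markers summed to 2431 to 2607 CPM with siSMIM30 and 2478 to 2584 CPM with siControl, with Cd68 the 1 called (-0.10, edgeR adjusted p = 0.0465), and its part in the integrin values was not tested.

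**Figure D2:**
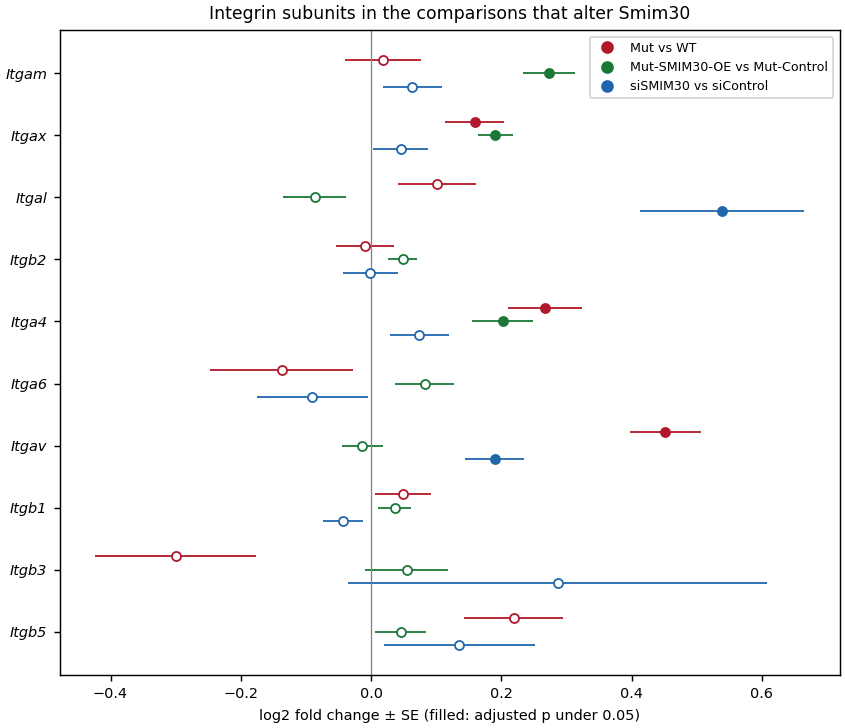
Fitted log2 fold change and its standard error for each subunit in Mut against WT, Mut-SMIM30-OE against Mut-Control and siSMIM30 against siControl, each from 3 libraries a group, with filled points where the adjusted p was under 0.05. Itgav lay to the right of 0 in Mut (0.45) and with siSMIM30 (0.19) and at -0.01 with the virus, and Itgam lay to the right with the virus (0.27).

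The effects of the Smim30 manipulations were also tested against each other, in models of 12 libraries that share none between the effects. The mutation effect minus the virus effect was called for 3.84% of 13422 genes. For Itgav that difference was 0.47 on the log2 scale (SE 0.07, edgeR adjusted p = 7.66e-06) and passed in all 16 alternatives. For Itgam it was -0.26 (SE 0.07, edgeR adjusted p = 0.0206), and it was lost with DESeq2 (adjusted p = 0.0528) and without WT replicate 1, Mut-SMIM30-OE replicate 1, Mut-SMIM30-OE replicate 3 or Mut-Control replicate 2, within a range of 0.0225 to 0.077. The difference did not pass for the 2 subunits called higher in both comparisons, at 0.07 (SE 0.07) for Itga4 and -0.03 (SE 0.05) for Itgax.

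The mutation effect minus the siRNA effect was called for 2.51% of 14804 genes. For Itgav it was 0.26 (SE 0.07, edgeR adjusted p = 0.031), and it was lost in 10 of 16 alternatives, all of which left out 1 library, with adjusted p from 0.00114 to 0.189 over the 16. For Itgal it was -0.44 (SE 0.14, edgeR adjusted p = 0.084) and passed with DESeq2 (0.0467) and without Mut replicate 1 (0.00638), siSMIM30 replicate 1 (0.0325) or siControl replicate 1 (0.0373). None of the other 8 subunits passed, by edgeR or in any of the alternatives run.

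Of the α partners of β2, αX RNA made up most in peritoneal macrophages, and αM and αX were nearer to each other in IC-21. Shares are of summed CPM per kilobase within a library. Itgax held 77.7 ± 1.19% in Mut and 76.6 ± 0.624% in WT, 82.9 ± 0.587% in Mut-SMIM30-OE and 82.5 ± 0.40% in Mut-Control, and 51.8 ± 0.401% with siSMIM30 and 52.7 ± 0.434% with siControl (SD, n = 3 each). Itgam held 7.63 ± 0.243% in Mut and 8.30 ± 0.415% in WT, 11.8 ± 0.41% in Mut-SMIM30-OE and 11.1 ± 0.523% in Mut-Control, and 44.0 ± 0.426% with siSMIM30 and 44.2 ± 0.806% with siControl. Itgal held the rest, and its share lay apart between Mut-SMIM30-OE, at 5.08 to 5.48%, and Mut-Control, at 6.24 to 6.61%, and the other way between siSMIM30, at 3.58 to 4.76%, and siControl, at 2.56 to 3.53%. The share of Itgam lay apart between Mut, at 7.40 to 7.88%, and WT, at 8.01 to 8.78%, and that of Itgax between siSMIM30, at 51.4 to 52.2%, and siControl, at 52.3 to 53.2%.

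Shares of β chains are within the sum of Itgb1, Itgb2, Itgb3 and Itgb5 alone. Other β chains, such as Itgb7 and Itgb8, are left out, so each share is larger than it would be among all β chains. Itgb7 exceeded Itgb5 per kilobase in every group. In CPM per kilobase they were at 40.3 and 14.9 in Mut, 62.6 and 52.0 in Mut-Control and 7.12 and 3.46 with siControl. Of the sum, Itgb2 held 70.7 ± 1.25% in Mut and 71.6 ± 0.575% in WT. It held 69.1 ± 0.191% in Mut-SMIM30-OE and 69.0 ± 0.751% in Mut-Control, and 30.9 ± 0.821% with siSMIM30 and 30.3 ± 1.16% with siControl. Itgb1 held 66.8 ± 0.662% with siSMIM30 and 67.6 ± 1.01% with siControl, and 24.1 to 29.0% in the peritoneal libraries. Itgb5 held 5.17 ± 0.268% in Mut-SMIM30-OE and 5.17 ± 0.165% in Mut-Control, against 1.22 ± 0.044% in Mut and 1.06 ± 0.0889% in WT. Per kilobase, Itgb2 exceeded the sum of its 3 α partners 3.13 ± 0.167 times in Mut and 3.47 ± 0.0306 times in WT, 2.60 ± 0.046 times in Mut-SMIM30-OE and 2.86 ± 0.10 times in Mut-Control, and 1.14 ± 0.0493 times with siSMIM30 and 1.19 ± 0.0872 times with siControl. Between Mut and WT the share of Itgb3 (0.219 to 0.240% and 0.257 to 0.312%) and that of Itgb5 (1.18 to 1.27% and 0.994 to 1.16%) lay apart. That ratio of Itgb2 lay apart between Mut (2.97 to 3.30) and WT (3.45 to 3.50). It also lay apart between Mut-SMIM30-OE (2.56 to 2.65) and Mut-Control (2.74 to 2.92). Shares and ratios do not move with the scaling between libraries. None was tested, and how often shares of other genes lie apart was not computed.

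**Figure D3:**
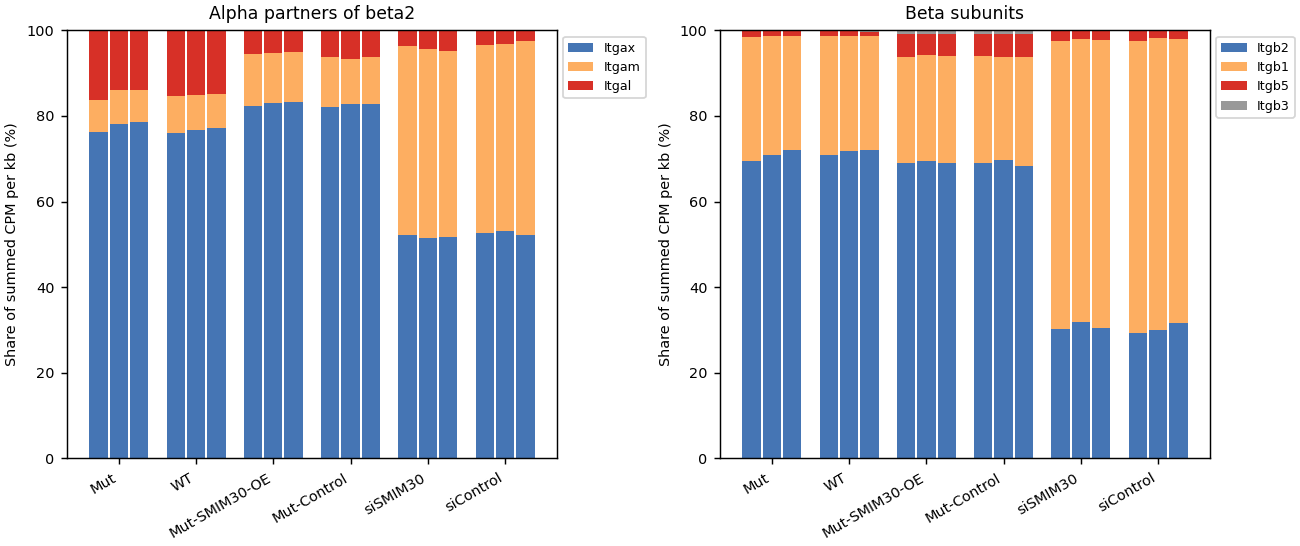
Share of each α partner of β2 (left) and of Itgb1, Itgb2, Itgb3 and Itgb5 (right) in their summed CPM per kilobase, in percent. There is 1 stacked bar for each of the 18 libraries, and other β chains, such as Itgb7, are not in the sum. Itgax held 76.6 to 82.9% of the α partners in the peritoneal groups and 51.8 to 52.7% in the IC-21 groups, and Itgb2 and Itgb1 changed places between peritoneal cells and the line.

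Mut-Control was also set against Mut, which carry the same mutation and LPS, but virus, the longer culture and the part of the series differ at once and cannot be told apart. Its libraries also stand in the Mut against WT and Mut-SMIM30-OE against Mut-Control comparisons, so its values are not independent of theirs. Itga6, Itgb5, Itgb3 and Itgam rose, and Itgal, Itga4, Itgb1, Itgb2 and Itgax fell. This was 9 of the 10 subunits, where 53.6% of 12798 genes were called, 27.1% as higher and 26.5% as lower.

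Itga6, the laminin receptor chain, was at 115, 113 and 120.2 CPM in Mut-Control and 21.4, 22.7 and 23.8 CPM in Mut. It rose 5.05-fold (log2 fold change 2.34, SE 0.07, adjusted p = 1.14e-22 by edgeR's quasi-likelihood test), the largest difference of the 10. Itgb5 was at 174, 190.3 and 189.7 CPM in Mut-Control and 54.1, 52.0 and 53.1 CPM in Mut, a rise of 3.45-fold (1.79, SE 0.06), and Itgb3 was at 54.4, 58.9 and 52.2 CPM in Mut-Control and 16.6, 15.4 and 17.97 CPM in Mut, a rise of 3.27-fold (1.71, SE 0.09). Itgam was at 136, 131 and 139 CPM in Mut-Control and 104, 107 and 106 CPM in Mut, a rise of 1.27-fold (0.35, SE 0.05).

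Itgal was at 95.6, 107 and 103 CPM in Mut-Control and 301, 248 and 252 CPM in Mut, a log2 fold change of -1.40 (SE 0.07). Itga4 was at 92.6, 101 and 102 CPM in Mut-Control and 194, 185 and 173 CPM in Mut (-0.91, SE 0.06). Itgb1 (-0.45) and Itgb2 (-0.33) fell less. Groups were apart for 9 of the 10 subunits and for 59.2% of genes tested. Itgax fell by 0.11 on the log2 scale (edgeR adjusted p = 0.0202), a call lost without a composition factor, with no filter and without Mut-Control replicate 1 (adjusted p up to 0.174), and Itgav had a log2 fold change of -0.11 (edgeR adjusted p = 0.0909) that passed only without Mut replicate 3 (-0.18, adjusted p = 0.000545).

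Outside the 10, Itgb8 was at 4.68 ± 0.836 CPM in Mut-Control and 59.5 ± 8.26 CPM in Mut (SD, n = 3 each; log2 fold change -3.67) and Itga1, a collagen receptor chain, at 2.44 ± 0.716 CPM and 34.6 ± 6.52 CPM in the same 2 groups (-3.82). Itgb7 rose (0.62), and in all 1 of 6 tested rose and 4 fell. Of 34 adhesion-complex proteins 8 rose and 19 fell, with the kinase gene Src (-1.62) among those that fell and the Rap effector gene Rassf5 (1.73) among those that rose. Of 17 ligands 4 rose and 11 fell, led by the fibronectin gene Fn1 (-2.73), and of 12 membrane partners 4 rose and 3 fell. Fibroblast and mesothelial markers summed to 111.9 to 135.0 CPM in Mut-Control and 320.6 to 354.5 CPM in Mut, all 8 tested being lower. The 3 endothelial markers summed to 32.8 to 39.9 CPM in Mut-Control and 8.754 to 9.472 CPM in Mut, of which Kdr rose, Cdh5 was at 0.68 CPM in Mut-Control and 1.66 CPM in Mut, and Emcn was at 0 in both groups. The 5 dendritic cell markers summed to 4.563 to 5.757 CPM in Mut-Control and 10.85 to 16.46 CPM in Mut. The 3 platelet markers were at or under 3 counts in every library. Of the 8 macrophage markers 2 were called higher and 3 lower, with sums of 12390 to 12600 CPM in Mut-Control and 12580 to 13300 CPM in Mut. The 6 B cell markers summed to 98.77 to 112.4 CPM in Mut-Control and 71.99 to 76.36 CPM in Mut, with 1 of 3 tested higher and 2 lower. Mast cell markers (2 of 3 tested) and the 1 tested neutrophil marker were called lower. The part of the markers that moved in the integrin values was not tested.

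siControl was set against WT to compare the line with primary cells, where line, transfection, culture time and part of the series cannot be told apart. By TMM scaling 7 of the 10 subunits fell, where 80.3% of 14066 genes were called, 40.2% as lower and 40.1% as higher. Itgb2 was at 153, 165 and 179 CPM with siControl and 2499, 2658 and 2748 CPM in WT (log2 fold change -3.95, SE 0.05, edgeR adjusted p = 4.43e-44). Itgal (-4.73), Itgb3 (-3.79), Itgax (-2.95), Itgb5 (-1.86), Itgav (-1.79) and Itgb1 (-1.39) also fell. All 7 had groups apart, as had Itga4, which was not called. Groups were thus apart for 8 of the 10 subunits and for 81.1% of genes tested. The 7 that were called fell as well without a composition factor.

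Itgam was at 100.5, 96.9 and 105 CPM with siControl and 105, 102 and 105 CPM in WT, Itga6 at 27.3, 23.0 and 27.2 CPM with siControl and 23.2, 22.9 and 28.2 CPM in WT, and Itga4 at 138, 138 and 141 CPM with siControl and 159, 144 and 151 CPM in WT. None passed by TMM (log2 fold changes -0.00, 0.08 and -0.08), and Itga4 passed as lower in the fit of all 18 libraries and without WT replicate 2 (-0.14, adjusted p = 0.0178). Without a composition factor the median of all genes shifted by 0.705 on the log2 scale, 75.2% of called genes were higher (by TMM, 5645 of 11299 were), and all 3 passed as higher, at 0.70 for Itgam, 0.62 for Itga4 and 0.79 for Itga6. Their direction between line and primary cells therefore rests on the scaling. The 20 most abundant genes took 7.496 to 7.9% of counts in IC-21 and 14.38 to 16.72% in peritoneal libraries.

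Among other subunits, Itga9 was at 63.4 ± 2.85 CPM with siControl and 19.0 ± 3.44 CPM in WT (SD, n = 3 each; log2 fold change 1.80) and Itga7, a laminin receptor chain, at 11.8 ± 0.713 CPM with siControl and 0.521 ± 0.116 CPM in WT (4.49), while Itgb7 (-2.56), Itga5 (-1.45), Itgb8 (-4.31) and Itga1 fell. Of 34 adhesion-complex proteins 27 fell and 5 rose, among them the kindlin gene Fermt2 (4.94), of 16 ligands 13 fell and 2 rose, and of 12 membrane partners 11 fell and 1 rose. The 12 fibroblast and mesothelial markers were all at or under 3 counts in each siControl library and summed to 327.4 to 361.7 CPM in WT. Of the 8 macrophage markers 7 were called lower and 1 higher. They summed to 2478 to 2584 CPM with siControl and 13660 to 15030 CPM in WT. The part of these markers in the integrin values was not tested.

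**Figure D4:**
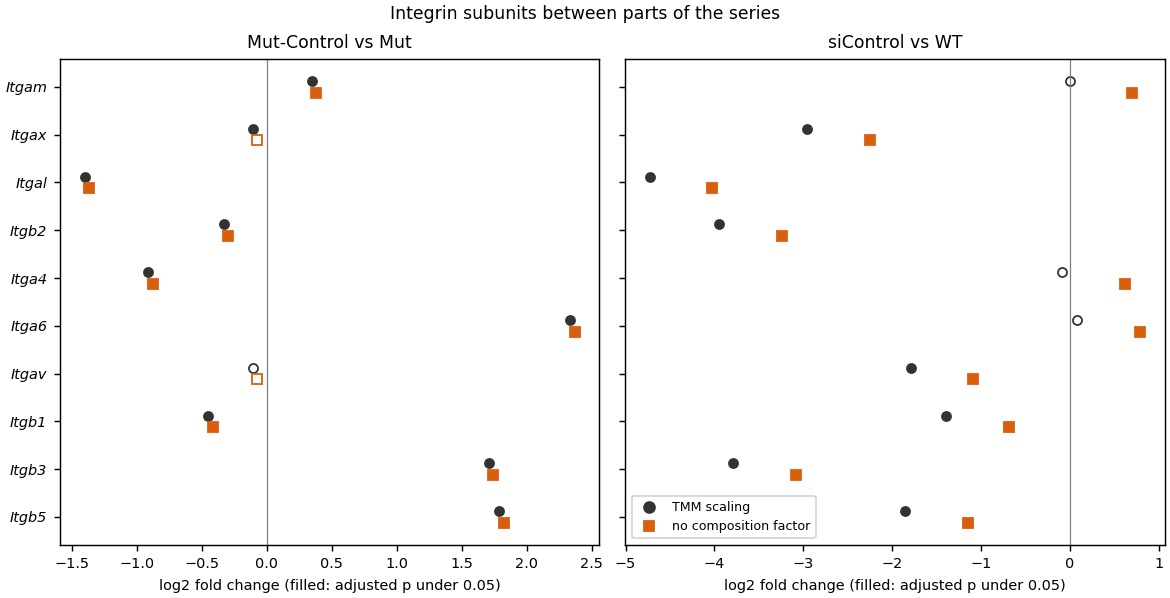
Log2 fold change of each subunit in Mut-Control against Mut (left) and in siControl against WT (right), by TMM scaling (circles) and without a composition factor (squares), with filled symbols where the adjusted p was under 0.05. Itga6, Itgb5 and Itgb3 lay at 1.71 to 2.34 on the left by TMM, and on the right Itgam, Itga4 and Itga6 moved from near 0 to 0.62 to 0.79 without the factor.

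For each subunit the 3 genes with the most similar course over the 6 group means were taken among 8718 named genes, by the root mean square difference of centred log2 CPM. Itgb1 had the closest neighbours, Ubash3b (0.02), Dhx38 (0.0255) and App (0.0338). Itgav was nearest to Skil (0.0751), Ptk2b (0.0984), which encodes the adhesion kinase Pyk2, and Slfn2 (0.106), Itgb2 to Ninj1 (0.0615), Itgam to Zbtb33 (0.0593), Itga4 to Eml4 (0.0568) and Itga6 to Slc37a2 (0.0797) and Fcgr4 (0.12). Itgax (Dyrk2, 0.0929), Itgb5 (Hacd4, 0.115), Itgb3 (Dlg3, 0.139) and Itgal (Col27a1, 0.187) had more distant nearest genes. These measures rest on 6 group means with shared libraries and are a description.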

How the data were processed

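Total RNA went into strand-specific libraries, per the labels' protocols. Reads were handled with fastp, FastQC, HISAT2 and featureCounts, per the submitters' processing notes. The values the authors deposited are raw counts: exonic read pairs of each gene from featureCounts 2.0.3 with GENCODE M25 (GRCm38), per the file headers. Each file's sample came from the deposit's own record, since the sample number in a file's header differed from that in its name. Symbols came from GENCODE M21, by identifier without version, for 55141 of 55401 genes. Mitochondrial genes held 0 counts, so no mitochondrial share is given. Replicates differed by more than counting noise (chi-square per gene 1.67 to 5.24 for genes whose counts summed to 20 or more).

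In R 4.3.3, edgeR 4.0.16 was run on the libraries of each comparison (filterByExpr, TMM, robust quasi-likelihood test), and p-values were adjusted after Benjamini and Hochberg over all genes tested, with a threshold of 0.05. All 10 subunits passed the filter in every fit. Levels are CPM scaled by TMM over all 18 libraries, so ratios of levels differ slightly from fitted fold changes. Alternatives were RLE scaling, no composition factor, other filters, DESeq2 1.42.0, all 18 libraries, a replicate block and leaving out each library. The fits were tested on simulated counts. With 3 libraries against 3 an exact permutation test cannot go below 0.1, so none is given. From each of 4 other lists up to 6 called genes were eligible for naming, by size of change, at an average log2 CPM of at least 2, and not all are named. Lamb1, Cd14, Fcgr1, Lyz2, Adgre1, Batf3, Cd22, Cd68, Kdr, Cdh5, Emcn, Fcna, Tln1, Fermt3 and Vcl are named outside that rule. The subunits and lists were chosen with earlier results of these data known.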

Additional observations from a re-analysis of the deposited data

Results flagged for a closer look

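The 10 subunits were each tested for 2 differences between effects, in edgeR models of 12 libraries with 3 in each of 4 groups. In all, 3 differences passed. Of all genes, 3.84% of 13422 were called for the mutation effect minus the virus effect. For the mutation effect minus the siRNA effect, 2.51% of 14804 were called. The effect of the mutation on Itgav exceeded that of the Smim30 virus by 0.47 on the log2 scale: Itgav was higher in all 3 Mut than in all 3 WT libraries, and the Mut-SMIM30-OE and Mut-Control libraries overlapped. The effect of the mutation on Itgam was below that of the virus, by -0.26: Itgam was higher in all 3 Mut-SMIM30-OE than in all 3 Mut-Control libraries, and Mut and WT overlapped. The effect of the mutation on Itgav exceeded that of the siRNA by 0.26, with both effects upward and without overlap between groups. The Itgav difference from the siRNA was lost in 10 of 16 alternatives, and the Itgam difference in 5 of 16.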

How the results depend on the processing

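Of 966 values of single subunits under the alternatives, 922 kept their side of the threshold, 33 no longer passed, 9 newly passed and 2 reversed. A change of sign was counted as a reversal only where the main or the alternative value passed. Values near 0 that changed sign without passing in either are among the 922. The 2 that reversed were Itgam (0.70) and Itga4 (0.62) in siControl against WT without a composition factor. Genes called numbered 788 in Mut against WT and 1198 in the fit of all 18 libraries. They numbered 181 in Mut-SMIM30-OE against Mut-Control, 68 with DESeq2 and 87 in the fit of all 18 libraries. They numbered 472 in siSMIM30 against siControl, 291 with DESeq2 and 263 in the fit of all 18 libraries. Without a composition factor, 54.3% of genes called in siSMIM30 against siControl were higher, against 68.6%. Leaving out 1 library gave 469 to 957 calls in Mut against WT, with the lowest without Mut replicate 2. It gave 66 to 453 in Mut-SMIM30-OE against Mut-Control (66 without Mut-SMIM30-OE replicate 3, 82 without Mut-Control replicate 1, 106 without Mut-SMIM30-OE replicate 2 and 453 without Mut-Control replicate 3) and 309 to 422 in siSMIM30 against siControl (lowest without siControl replicate 2). It gave 6274 to 6666 in Mut-Control against Mut, 11074 to 11438 in siControl against WT, 267 to 571 for the mutation effect minus the siRNA effect (372 with all libraries) and 350 to 747 for that minus the virus effect (515 with all libraries). Replicate numbers did not pair the libraries: the correlation of deviations of same-numbered libraries was -0.119 to 0.08, and 6 of 15 pairs correlated best with their own number. With the replicate number as a block, 782, 253, 546, 6688, 11191, 410 and 515 genes were called in these 7 comparisons in the order above, and 1 of 70 calls of subunits changed, that of Itgax in Mut against WT (adjusted p = 0.05). Causes of these shifts were not tested. Depth limits the precision for Itgb3 in IC-21, at 12 to 24 counts a library.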
